A study of Homo sapiens with 12 samples.

Results

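To describe the DNA damage response in CD133+ cells of gastric cancer (GC), 42 genes of DNA repair and its checkpoints were followed across 3 GC cell lines. The genes were chosen by symbol, and all 42 have a row among the 34595 genes with a value. They cover homologous recombination, the Fanconi anemia pathway, break sensing and checkpoint kinases, mismatch repair, single-stranded DNA binding, end joining, single-strand break repair and nucleotide excision repair. KATO-III, SNU216 and SNU601 are established GC lines grown in RPMI1640 medium with calf serum, with no drug or radiation treatment named in the labels. Each line was stained for CD133, a membrane glycoprotein encoded by PROM1, and sorted by flow cytometry. The brightest cells were collected as CD133+ and the dimmest as CD133-. The 6 sorted populations were each hybridized to 2 Illumina HT-12 v3 arrays, giving 12 arrays, 6 per fraction. The text deposited with the series names SNU201 in the place of SNU216, and the array labels were followed. Whether the 2 arrays of a population came from separate sorts is not stated, so p-values measure the spread between these arrays, which may be technical.

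Cells repair broken DNA by several routes. The MRE11A-RAD50-NBN complex binds a double-strand break and activates the kinase ATM, while RPA-coated single-stranded DNA activates ATR, and CHEK2 and CHEK1 pass these signals to the cell cycle machinery. Homologous recombination copies the lost sequence from the sister chromatid and is used in S and G2 phase, whereas the Ku proteins XRCC5 and XRCC6 with LIG4 rejoin ends at any phase. The Fanconi anemia proteins remove crosslinks between the strands. Many of these genes are transcribed most in S phase.

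Intensities are background-subtracted, quantile-normalized array readings in arbitrary units on a linear scale. Values under 32.7 were set to this floor before log2 was taken, and genes exceeding it on 2 or more arrays were tested. Of the 42 genes 39 were tested. BRCA2, a recombination mediator, BRIP1, a helicase that binds BRCA1, and the kinase ATR were above the floor on no array, and their highest reading was 16.3. FANCA passed through SNU601 alone and RAD51C through the other lines. FANCF passed through KATO-III, with 1 further array above the floor in SNU216. The arrays of a population correlated at r of 0.993 to 0.995 over the tested genes, and 35 to 38 of the 42 genes exceeded the floor on each array. No array stood apart. PROM1 averaged 9180 in the CD133+ fraction of KATO-III, 9023 in that of SNU216 and 4777 in that of SNU601, with 4275, 2225 and 1320 in their CD133- counterparts. The epithelial genes EPCAM, TACSTD1, KRT8, KRT18, KRT19 and CDH1 exceeded the floor on all 12 arrays, and PTPRC, CD3D, COL3A1, DCN, PECAM1, VWF and CDH5 of leukocytes, stroma and endothelium on none. CD14 reached 1242 in KATO-III.

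The upstream sequences of the genes were searched for letters that cell cycle factors recognise. RefSeq promoters of build GRCh38.p14, running from 250 bases before to 50 after the start, were matched for 37 of the 42 genes. The E2F-type motifs TTTCGCGC, TTTGGCGC, TTTCCCGC and TTTGCCGC, searched on both strands, were found in 11 of the 37 promoters (29.7%), beside 908 of 27305 promoters in the whole table (3.33%). The 11 belong to XRCC2, FANCA, FANCC, FANCD2, MSH3, MSH6, PMS2, EXO1, XRCC6, LIG1 and XPC. The CHR motif TTTGAA, known from promoters of late cell cycle genes, was found in 4 of the 37 (10.8%, in BRIP1, FANCC, ATM and XRCC1) and in 15.4% of all promoters. These promoters are rich in CG dinucleotides, with a median of 29 in 300 bases beside 14 over all promoters, and each of the E2F-type motifs contains CG. A match is a description of the letters only. The promoters of 4 genes that the results turn on are shown, with E2F-type matches in capitals. BLM was higher in CD133+ cells of every line, EXO1 over the lines together and FANCD2 in KATO-III, and RAD51C was at the floor in SNU601.

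BLM, chr15:90717096-90717395, + strand: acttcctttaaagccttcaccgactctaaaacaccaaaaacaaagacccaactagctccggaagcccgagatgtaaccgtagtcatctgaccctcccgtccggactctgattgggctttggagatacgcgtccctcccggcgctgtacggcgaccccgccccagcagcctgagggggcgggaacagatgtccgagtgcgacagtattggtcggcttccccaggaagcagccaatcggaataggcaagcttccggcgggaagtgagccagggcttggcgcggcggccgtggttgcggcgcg

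EXO1, chr1:241847954-241848253, + strand: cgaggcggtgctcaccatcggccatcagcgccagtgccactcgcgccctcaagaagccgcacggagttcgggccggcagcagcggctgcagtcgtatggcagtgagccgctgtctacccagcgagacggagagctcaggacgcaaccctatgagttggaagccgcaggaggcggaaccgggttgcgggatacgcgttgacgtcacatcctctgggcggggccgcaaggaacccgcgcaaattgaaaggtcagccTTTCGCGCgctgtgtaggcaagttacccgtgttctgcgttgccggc

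FANCD2, chr3:10026187-10026486, + strand: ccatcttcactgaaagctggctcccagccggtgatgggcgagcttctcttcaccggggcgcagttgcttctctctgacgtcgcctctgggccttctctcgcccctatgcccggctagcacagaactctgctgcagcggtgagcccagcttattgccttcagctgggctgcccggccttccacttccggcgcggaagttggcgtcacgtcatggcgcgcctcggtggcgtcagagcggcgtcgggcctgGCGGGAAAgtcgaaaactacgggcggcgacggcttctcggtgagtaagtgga

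RAD51C, chr17:58692323-58692622, + strand: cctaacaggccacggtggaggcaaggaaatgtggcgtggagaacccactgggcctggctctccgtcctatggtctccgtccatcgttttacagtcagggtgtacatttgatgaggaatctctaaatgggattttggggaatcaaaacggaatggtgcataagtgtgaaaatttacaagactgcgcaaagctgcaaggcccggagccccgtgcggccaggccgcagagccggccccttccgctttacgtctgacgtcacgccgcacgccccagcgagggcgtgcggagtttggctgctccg

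The EXO1 and FANCD2 promoters each hold 1 match, and those of BLM and RAD51C hold none. Among the genes called over all lines, EXO1 was the one with an E2F-type match.

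With the 3 lines in one fit, 6 of the 39 repair genes were higher in CD133+ cells, and none was lower. They are the recombination genes RAD54L and BLM, the nuclease MRE11A, the checkpoint kinases CHEK1 and CHEK2, and the exonuclease EXO1. Their increases lay between 0.37 and 0.54 on the log2 scale, or 1.30- to 1.45-fold. The test was limma with cell line as a block and Benjamini-Hochberg adjustment over the 20147 genes tested, with a threshold of 0.05 that is used throughout. These 6 are 15.4% of the repair genes, beside 2.62% of all tested genes called higher and 2.11% called lower. At an unadjusted p under 0.05, 25 repair genes were higher and 3 lower, beside 11.5% of all genes higher and 13.0% lower. The median change of the 39 was 0.24, beside -0.01 over all tested genes. The calls over the lines depend on counting the 2 arrays of a population as independent: with these averaged first, 0 of the 39 and 0 of all 20147 genes passed, with 3 repair genes higher and 0 lower at an unadjusted p under 0.05, beside 2.33% and 2.59% of all genes. With the population as a random block, 0 of the 39 and 1 of all genes passed.

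**Figure D1:**
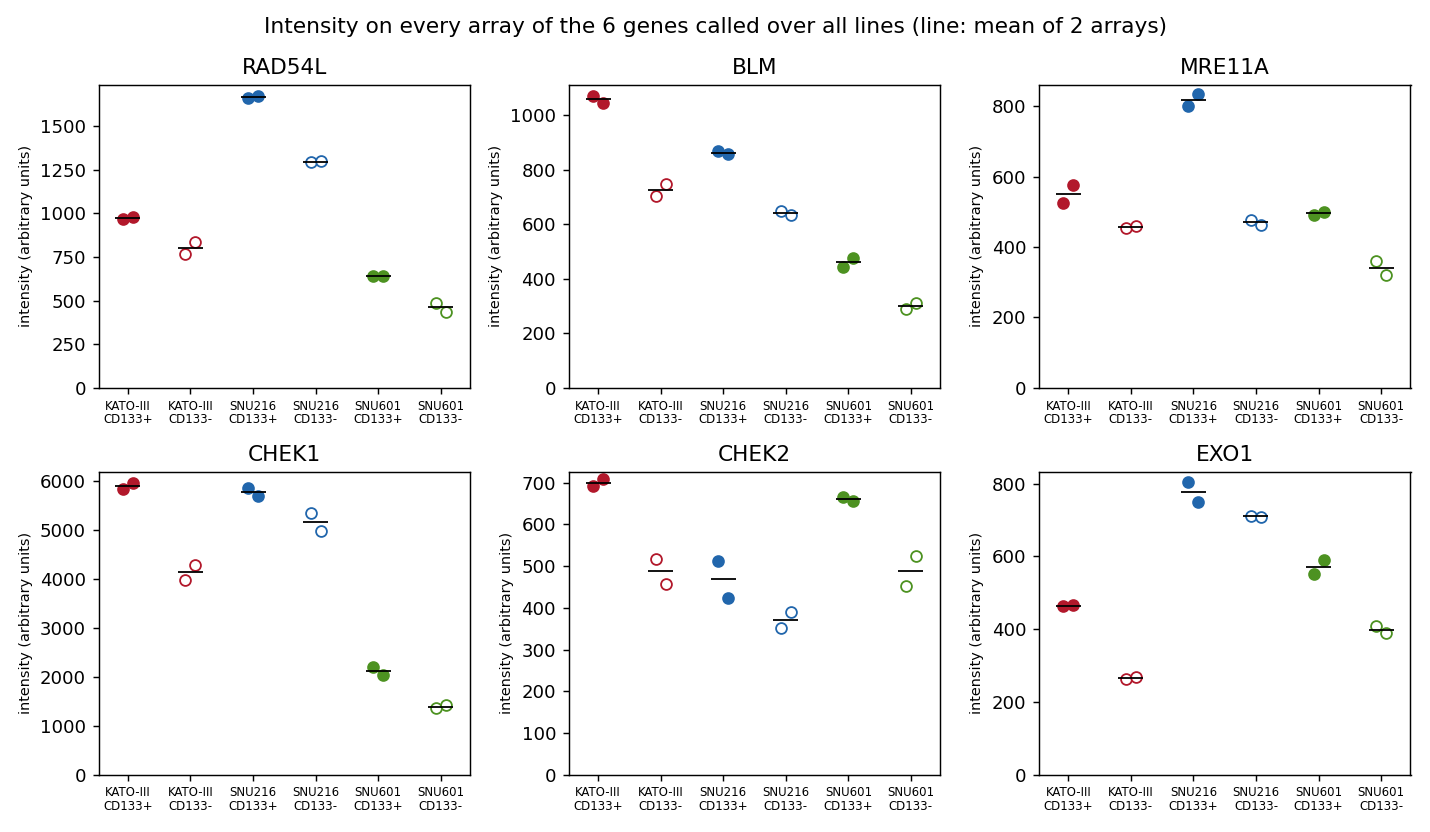
Intensity (arbitrary units, linear axis from 0) on every array of the 6 repair genes called higher over the lines; filled points are CD133+ and open points CD133- arrays, and the black line is the mean of 2 arrays. In every panel both CD133+ arrays of a line lie above both CD133- arrays of that line, while the lines differ in level. The 6 genes were chosen by the test on these same arrays, so this separation follows in part from the choice.

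BLM, a RecQ helicase that dissolves recombination intermediates, read 1072 and 1047 on the CD133+ and 706 and 747 on the CD133- arrays of KATO-III, 870.2 and 857 against 647 and 634 in SNU216, and 443 and 477 against 289.5 and 309.8 in SNU601. The fractions did not overlap in any line. Its change was 0.55, 0.43 and 0.62 in the 3 lines and 0.53 ± 0.067 (SE, 12 arrays) over them, with limma's adjusted p of 0.0057. RAD54L, a motor protein of strand exchange, read 965 and 977 against 768 and 837 in KATO-III, 1659 and 1672 against 1293 and 1298 in SNU216, and 643 and 642 against 488 and 432 in SNU601. Every CD133+ array was above the CD133- arrays of its line. The change was 0.37 ± 0.065 (limma, adjusted p = 0.0155). BLM, RAD54L and the other genes called over the lines were chosen on these same arrays. The gaps between their fractions are therefore no further support.

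MRE11A, the nuclease that starts the trimming of broken ends, read 526 and 575 against 453 and 459 in KATO-III, 800.5 and 835 against 478 and 461 in SNU216, and 492 and 501 against 361 and 321 in SNU601. The widest gap was in SNU216, at 1.74-fold. The change was 0.54 ± 0.094 over the lines (limma, adjusted p = 0.0157), and it differed between the lines (limma F-test, adjusted p = 0.00935), with 0.53 more in SNU216 than in KATO-III. BLM, RAD54L and MRE11A were also called higher in each line on its own. These 3 genes are 7.69% of the 39, where 0.630% of all genes were higher and 0.427% lower in each of the 3 lines, and 0 repair genes were lower in each line, also at an unadjusted p under 0.05. Without KATO-III CD133- replicate 1, RAD54L and MRE11A lost the call in KATO-III, and MRE11A also without CD133+ replicate 2 or CD133- replicate 2.

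CHEK1, the checkpoint kinase downstream of ATR, read 5835 and 5965 against 3990.0 and 4294 in KATO-III, 5870.2 and 5701 against 5349 and 4977 in SNU216, and 2199.6 and 2044 against 1355 and 1432 in SNU601. The fractions were apart in every line, least so in SNU216. The change was 0.51 in KATO-III and 0.61 in SNU601, where limma called it, and 0.17 in SNU216 (adjusted p = 0.0676), with 0.43 ± 0.073 over the lines (adjusted p = 0.0148). CHEK2, the kinase downstream of ATM, read 691 and 708 against 518 and 458 in KATO-III, 513 and 423 against 351 and 389 in SNU216, and 665 and 656 against 451 and 524 in SNU601. Its fractions did not overlap within a line either. The change was 0.43 ± 0.084 over the lines (limma, adjusted p = 0.0229), and the call was lost without any 1 of the 4 KATO-III arrays, with adjusted p of 0.0518 to 0.0629.

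EXO1, an exonuclease of mismatch repair and end resection, read 462 and 466 against 263 and 268 in KATO-III, 805 and 750.0 against 710.0 and 709 in SNU216, and 551 and 590.1 against 409 and 389 in SNU601. It was 1.75-fold higher in CD133+ cells of KATO-III, 1.43-fold in SNU601 and 1.10-fold in SNU216, where the change missed the threshold (limma, adjusted p = 0.177). The change over the lines was 0.48 ± 0.105 (limma, adjusted p = 0.0312). The call was lost without any 1 of the KATO-III arrays and without replicate 2 of either SNU601 fraction, with adjusted p of 0.0507 to 0.0823. Without a KATO-III array the count over the lines was therefore 4.

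Within the lines, the repair genes were called higher most often in KATO-III. There 21 of the 39 were higher (53.8%) and 5 were lower (12.8%), beside 18.7% of all tested genes higher and 20.6% lower. In SNU216, 8 were higher (20.5%) and XRCC2 was lower (2.56%), where 14.6% of all genes were higher and 14.0% lower. In SNU601, 13 were higher (33.3%) and 3 lower (7.69%), with 8.59% of all genes higher and 7.78% lower. The 39 genes had a median change of 0.28 (KATO-III), 0.08 (SNU216) and 0.18 (SNU601), and that of all tested genes was 0.00 in each line. These fits take the spread from all 12 arrays. With the 4 arrays of SNU601 alone, 0 repair genes were called higher and 1 lower (0.531% and 0.506% of all genes), while 15 were higher and 5 lower at an unadjusted p under 0.05 (11.5% and 11.9% of all genes). Without CD133+ replicate 2 or either CD133- array of SNU601, its 3 lower calls fell to 1, and without CD133+ replicate 2 or CD133- replicate 2 of KATO-III the 5 lower calls there fell to 3. Leaving out at least 1 array of the line ended the calls of ATM, DDB2, FANCF, FANCG, MRE11A, MSH6, RAD50, RAD54L and XRCC1 in KATO-III, of FANCG and XRCC5 in SNU216, and of CHEK2, FANCA, FANCE, FANCI, PALB2 and RAD50 in SNU601.

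**Figure D2:**
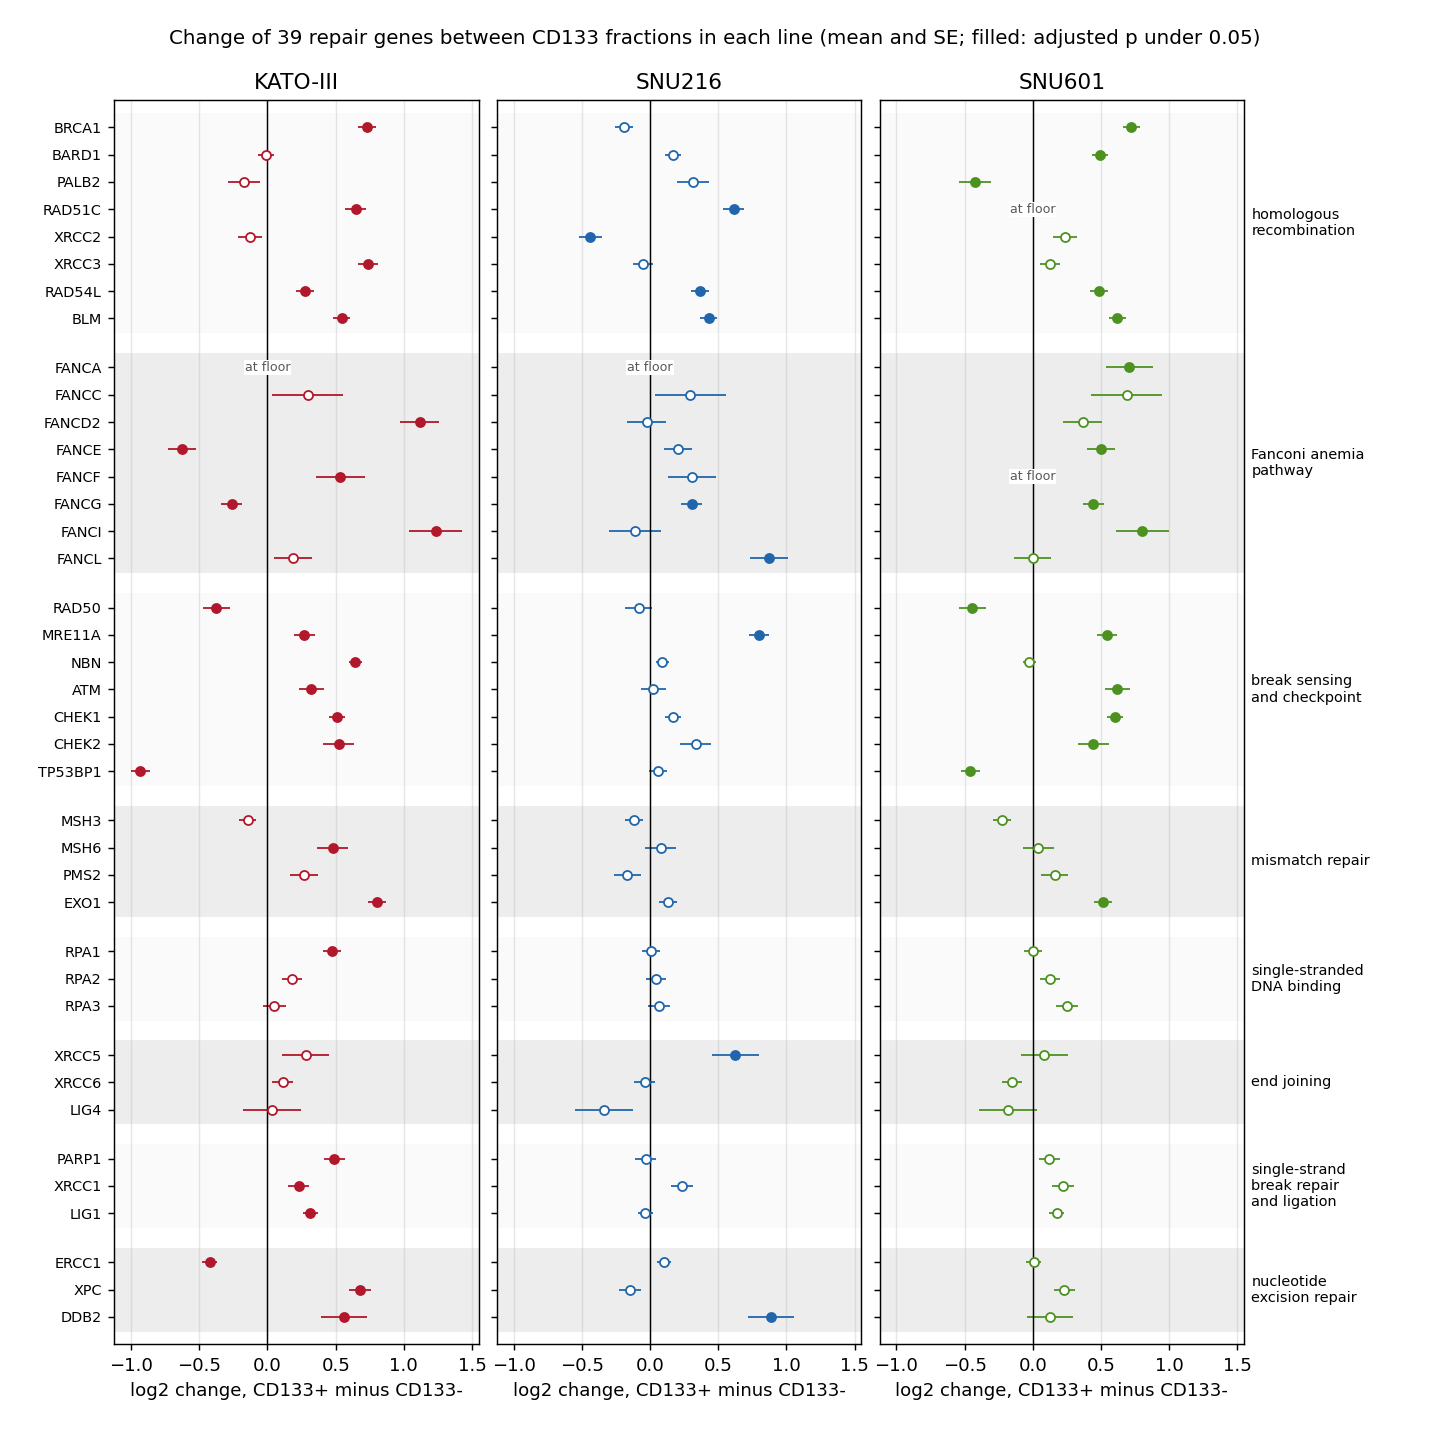
Change of each of the 39 tested repair genes in each line (x axis, log2, CD133+ minus CD133-; point, contrast of 2 against 2 arrays; bar, SE), grouped by role; filled points have an adjusted p under 0.05, and genes with all 4 arrays of a line at the floor are marked. Most KATO-III points lie right of 0, with FANCI at 1.23 and TP53BP1 at -0.93 at the ends, and SNU216 points lie closer to 0.

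**Figure D3:**
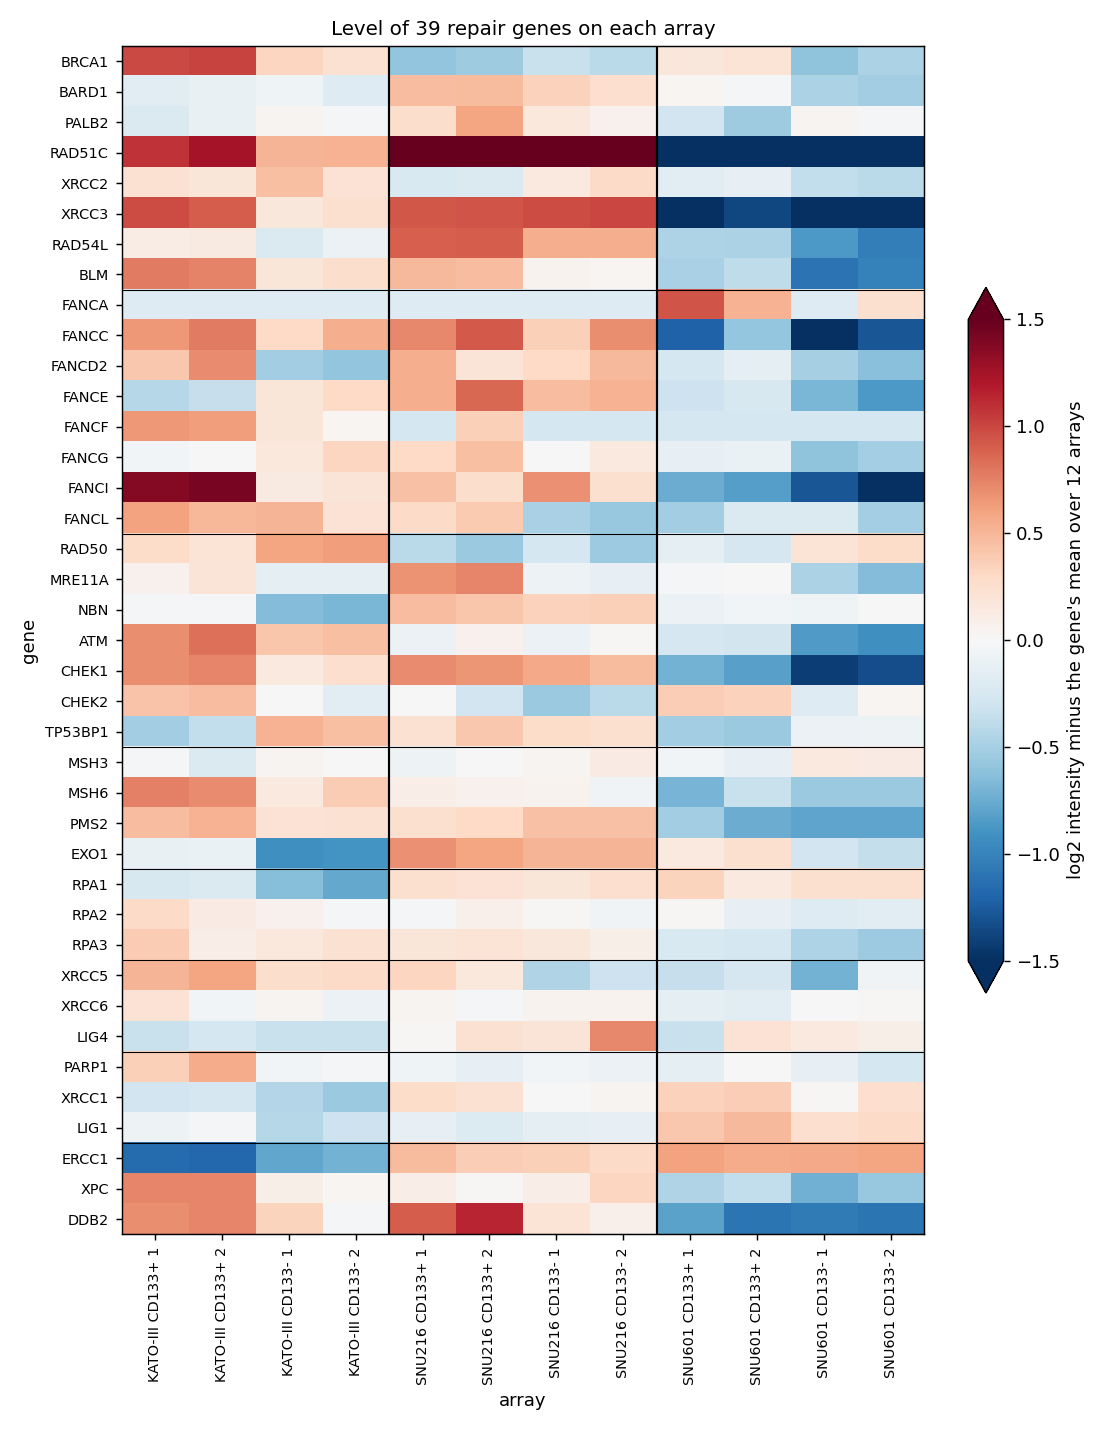
Log2 intensity of the 39 repair genes (rows) on each of the 12 arrays (columns) minus the gene's mean over the arrays, with colours capped at -1.5 and 1.5; horizontal lines part the roles and vertical lines the cell lines. RAD51C, XRCC3, FANCC and CHEK1 are low in all SNU601 columns, ERCC1 in all KATO-III columns.

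Of the 10 homologous recombination genes 8 were tested, with 5 higher calls for KATO-III, 3 for SNU216 and 4 for SNU601, with XRCC2 lower in SNU216 and PALB2 lower in SNU601. BRCA1, which directs breaks into recombination, read 1260.4 and 1278 against 791 and 739.9 in KATO-III, 421 and 439 against 504 and 480.4 in SNU216, and 716 and 728 against 418 and 457 in SNU601. It was thus 1.66-fold and 1.65-fold higher in CD133+ cells of KATO-III and SNU601, while in SNU216 both CD133+ arrays were below the CD133- arrays. The SNU216 change of -0.19 ± 0.064 missed the threshold (limma, adjusted p = 0.0534). The difference between the lines passed it (limma F-test, adjusted p = 9.8e-05), with the SNU216 change 0.92 below that of KATO-III and SNU601. BARD1, the partner of BRCA1 in its ubiquitin ligase, was called in SNU601 alone, with a change of 0.50, and had -0.01 in KATO-III and 0.17 in SNU216. Its readings ran from 1073 to 2145 over the 12 arrays, with SNU216 highest. PALB2, which bridges BRCA1 and BRCA2, fell by 0.42 in SNU601 (limma, adjusted p = 0.0397) and had -0.17 in KATO-III and 0.31 in SNU216, and the lines differed (limma F-test, adjusted p = 0.0152).

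RAD51C, XRCC2 and XRCC3 belong to complexes that assist strand exchange in recombination. RAD51C read 609 and 681 against 410.4 and 412 in KATO-III, 1760.5 and 1719 against 1129 and 1147 in SNU216, and between -19.2 and 2.73 on the 4 SNU601 arrays. It was higher in CD133+ cells of KATO-III by 0.65 and of SNU216 by 0.61, and no change can be read in SNU601, where every array was at the floor. XRCC3 was higher in KATO-III by 0.74 and had -0.05 in SNU216 and 0.13 in SNU601, and XRCC2 fell by 0.44 in SNU216, with -0.13 in KATO-III and 0.24 in SNU601. XRCC2 readings lay between 312 and 562. The changes of both differed between the lines (limma F-tests, adjusted p = 0.00069 and 0.0057).

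All 8 Fanconi anemia genes were tested, and 3 were higher and 2 lower in KATO-III, 2 were higher in SNU216, and 4 were higher in SNU601. None was called over the lines, although the changes of all 8 were above 0 there, between 0.03 and 0.64. FANCI and FANCD2 form the complex that the pathway ubiquitinates at a crosslink. FANCI read 1547 and 1598 against 656 and 681 in KATO-III, 806 and 718 against 962 and 702 in SNU216, and 355 and 335 against 244 and 160.2 in SNU601. It was 2.35-fold higher in CD133+ cells of KATO-III and 1.74-fold in SNU601, and the fractions overlapped in SNU216. FANCD2 read 520.0 and 643 against 274 and 259.6 in KATO-III, 575 and 449 against 484 and 552 in SNU216, and 328 and 356 against 277 and 253 in SNU601. It was called in KATO-III, at 2.17-fold, and had a change of 0.37 in SNU601 (limma, adjusted p = 0.123). For both genes the KATO-III change was larger than that of SNU216, by 1.34 for FANCI and 1.14 for FANCD2 (limma, adjusted p = 0.0055 and 0.0025).

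FANCL, the ubiquitin ligase of the pathway, read 1231 and 1138 against 1153 and 938 in KATO-III, 986 and 1062 against 577 and 543 in SNU216, and 564 and 696 against 694 and 567 in SNU601. The fractions were apart in SNU216 only, where FANCL was 1.83-fold higher in CD133+ cells, and the 3 changes differed (limma F-test, adjusted p = 0.0124). FANCE and FANCG, members of the core complex that holds FANCL, were lower in CD133+ cells of KATO-III, by log2 changes of -0.62 and -0.26, and higher in SNU601, by 0.50 and 0.44. FANCG was also higher in SNU216, by 0.30. Over the 12 arrays FANCE ran from 996 to 3299 and FANCG from 1786 to 3700.1, each highest in SNU216 CD133+ cells. The core members FANCA, FANCC and FANCF were dim, with FANCA called higher in SNU601 on readings of 71.6 and 53.5 against 25.5 and 43.9, and FANCF in KATO-III on 61.7 and 60.3 against 44.4 and 40.0. The FANCA and FANCF calls were both lost with a floor of 16. FANCC had changes of 0.29, 0.30 and 0.69 in the 3 lines and passed in none.

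Among the 8 genes of break sensing and checkpoints, 7 were tested, and every one of them was called in KATO-III, 5 higher and 2 lower. The subunits of the MRE11A complex did not move together. NBN, its regulatory subunit, read 824 and 812 against 532 and 515 in KATO-III, 1148 and 1106 against 1057 and 1062 in SNU216, and 784 and 809 against 796 and 825 in SNU601. Its 1.56-fold increase in KATO-III stood beside changes of 0.09 and -0.03 in SNU216 and SNU601, and the lines differed (limma F-test, adjusted p = 0.000168). RAD50, the ATPase of the complex, fell by 0.38 in KATO-III and 0.44 in SNU601 and had -0.08 in SNU216, while MRE11A was higher in each. ATM was higher in KATO-III by 0.32 and in SNU601 by 0.62 and had 0.02 in SNU216. RAD50 readings lay between 325 and 739 and ATM readings between 138 and 464, and both genes were brightest in KATO-III.

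TP53BP1, which protects broken ends from resection, went the other way from BRCA1 in KATO-III and SNU601. It read 1098 and 1224 against 2268 and 2157 in KATO-III, 1854 and 2085 against 1907 and 1871 in SNU216, and 1099 and 1077 against 1490.3 and 1495 in SNU601. CD133- cells thus held 1.91-fold more in KATO-III and 1.37-fold more in SNU601, and the fractions overlapped in SNU216. The change over the lines, -0.44 ± 0.132, missed the threshold (limma, adjusted p = 0.0745), and the difference between the lines passed it (F-test, adjusted p = 0.000196).

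Mismatch repair and the other groups were called mainly in KATO-III. MSH6, which recognises base mismatches, was higher there by 0.48, and had 0.08 and 0.04 in SNU216 and SNU601. MSH3, which recognises larger loops, had changes of -0.15, -0.12 and -0.22 in the 3 lines, and PMS2, a mismatch repair endonuclease, 0.27, -0.17 and 0.16. Neither was called. MSH6 ran from 1932 to 5321, MSH3 from 5590.2 to 7232 and PMS2 from 112 to 279 over the 12 arrays. RPA1, RPA2 and RPA3, the subunits of the protein that coats single-stranded DNA, all had changes above 0 in each line, of which the RPA1 change of 0.47 in KATO-III was called. Of the end joining genes, XRCC5, a Ku subunit, was higher in SNU216 by 0.62, and XRCC6, the other Ku subunit, and LIG4, the ligase, were called nowhere. XRCC6 stayed between 5916 and 7658 on all arrays, and LIG4, at 21.2 to 67.9, was near the floor.

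PARP1, a sensor of strand breaks, XRCC1, the scaffold of single-strand break repair, and LIG1, the replicative ligase, were all called higher in KATO-III, by 0.49, 0.23 and 0.31. The XRCC1 change was of like size in SNU216, at 0.23, and in SNU601, at 0.22, and the KATO-III value was just inside the threshold (limma, adjusted p = 0.0454). PARP1 had -0.03 in SNU216 and 0.12 in SNU601, and LIG1 -0.04 and 0.18. Of the nucleotide excision repair genes, DDB2, a p53-regulated sensor of ultraviolet lesions, read 113 and 116 against 88.4 and 68.4 in KATO-III, 131 and 154 against 80.3 and 73.5 in SNU216, and 40.1 and 28.1 against 33.5 and 20.0 in SNU601. It was called in KATO-III at 1.47-fold and in SNU216 at 1.85-fold, and the SNU601 readings were close to the floor and overlapped. The KATO-III and SNU216 calls of DDB2 were lost with a floor of 16. XPC, another lesion sensor, was higher in KATO-III by 0.68 and had -0.15 in SNU216. ERCC1, part of the nuclease that cuts beside the lesion, fell by 0.42 in KATO-III and had 0.10 and 0.01 in SNU216 and SNU601.

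A difference between lines in the CD133 change was called for 22 of the 39 genes (56.4%), beside 44.4% of all tested genes (limma F-test on 2 contrasts). The RAD51C difference is to a SNU601 change that the floor sets at 0. Leaving out genes with all 4 arrays of a line at the floor, among them RAD51C, FANCA and FANCF, the test was passed by 21 of 36 repair genes (58.3%) and 47.8% of all such genes. Across the 3 lines 15 of the 39 had a change above 0 in each line, and RAD50 and MSH3 a change below 0 in each. In 8 of the 22, BRCA1, XRCC3, FANCD2, FANCI, EXO1, PARP1, LIG1 and XPC, the KATO-III change was the highest and the SNU216 change the lowest, and in 3, MRE11A, TP53BP1 and ERCC1, this order was turned around. The shares of all tested genes with such signs or orders were not computed, so these counts describe the repair genes only. The widest gap between 2 lines was 1.34 for FANCI and the narrowest 0.35 for LIG1. BLM, RAD54L and CHEK2 did not pass this test (adjusted p = 0.244, 0.22 and 0.618), which does not show that their changes were equal.

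With both fractions averaged, the level of 37 of the 39 genes differed between the lines (94.9%), beside 72.3% of all tested genes (limma F-test). FANCA, FANCF and RAD51C entered the test only through the lines in which they are high, so their differences follow from the filter. Without the genes at the floor throughout a line, 34 of 36 passed (94.4%), beside 74.7% of all such genes. MSH3 and XRCC6 were the exceptions, with line means within 0.08 and 0.10 of each other on the log2 scale. With the 2 arrays of a population averaged first, 13 of the 37 passed, and the share of all tested genes in that fit was not computed. RAD51C had the widest range: its mean was 43.0-fold above the floor in SNU216 and 15.7-fold above it in KATO-III, so that it was at least 43.0-fold and at least 15.7-fold higher there than in SNU601. The table gives 1 row per gene symbol and no probe, so the transcript that this row reads is not known here. XRCC3 was lowest in SNU601 too, with 238 to 285 on its 4 arrays beside 827 to 1462 on the other 8, and its line means spanned 5.65-fold from SNU216 to SNU601.

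FANCI fell from KATO-III through SNU216 to SNU601 over a 3.92-fold range. The step from KATO-III to SNU216 was 0.37 ± 0.137 (limma, adjusted p = 0.0394). FANCC spanned 3.77-fold, with SNU601 lowest at 12.7 to 80.8, and KATO-III and SNU216, at 148 to 228, did not differ beyond the spread (limma, adjusted p = 0.639). CHEK1 was highest in SNU216 and 3.18-fold lower in SNU601, and KATO-III lay 0.14 below SNU216 (limma, adjusted p = 0.0132). ERCC1 was lowest in KATO-III, with 463 to 639 in KATO-III beside 1271 to 1593 in the other lines.

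SNU601 was the lowest line for 26 of the 37 genes whose level differed (70.3%), beside 29.4% of all genes whose level differed. SNU216 was lowest for BRCA1, RAD50 and CHEK2, and KATO-III for the other 8, among them ERCC1, NBN, EXO1 and RPA1, with FANCA at the floor in KATO-III and SNU216 alike. KATO-III and SNU216 were each the highest line for 16 genes. SNU601 was highest for FANCA, RPA1, XRCC1, LIG1 and ERCC1. Averaged over the 39 genes, the log2 level was 9.95 in CD133+ and 9.69 in CD133- cells for KATO-III, 10.00 against 9.85 for SNU216, and 9.39 against 9.17 for SNU601.

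**Figure D4:**
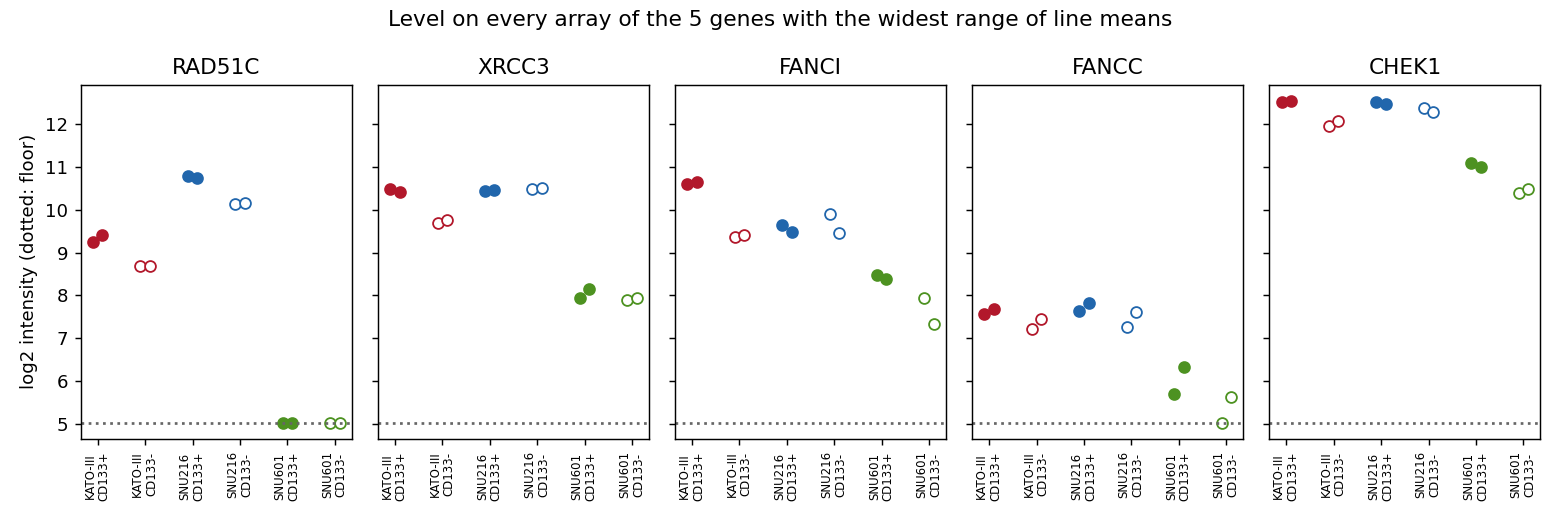
Log2 intensity on every array of the 5 repair genes with the widest range of line means; filled points are CD133+ and open points CD133- arrays, and the dotted line is the floor. SNU601 is lowest in all 5 panels, with RAD51C at the floor on its 4 arrays.

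Of 77 further repair genes, not all of them from the pathways named above, 72 were tested. In KATO-III 31 were higher (43.1%) and 13 lower (18.1%), beside the 18.7% and 20.6% of all genes given above. In SNU216 19 were higher (26.4%) and 15 lower (20.8%), and in SNU601 18 (25.0%) and 2 (2.78%). Over the lines 8 were higher (11.1%) and 2 lower (2.78%), with a median change of 0.10 beside 0.24 for the 39. The 3 with the largest changes over the lines were TIPIN, a replication fork protein, at 0.69 (limma, adjusted p = 0.0648), FANCB, of the Fanconi core complex, at 0.61 (0.0182), and RAD51AP1, a recombination accessory protein, at 0.59 (0.0142). Of 18 target genes of p53, 15 were tested, and 0 were called over the lines, beside 2.62% of all genes higher and 2.11% lower. In KATO-III 2 were higher (13.3%) and 5 lower (33.3%), beside 18.7% and 20.6% of all genes. In SNU216 6 were higher (40.0%) and 1 lower (6.67%), beside 14.6% and 14.0%. In SNU601 2 were higher (13.3%) and 1 lower (6.67%), beside 8.59% and 7.78%. CDKN1A, the p53-induced inhibitor of cyclin-dependent kinases, fell by 3.15 in KATO-III and rose by 0.51 in SNU216. TP53INP1, a stress-induced p53 cofactor, fell by 2.05 in KATO-III and by 0.85 in SNU601 and rose by 0.51 in SNU216, and BTG2, an antiproliferative gene, fell by 1.31 in KATO-III.

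Proliferation genes, like the repair genes, were called higher most often in KATO-III and SNU601 and least often in SNU216. Of 20 such genes, all tested, 13 were higher and 0 lower in KATO-III, beside 18.7% and 20.6% of all tested genes. In SNU216 4 were higher (20.0%) and 1 lower (5.00%), beside 14.6% and 14.0%. The share higher in SNU216 was thus little above that of all genes. In SNU601 11 were higher and 0 lower, beside 8.59% and 7.78%. Over the lines 6 were higher and 0 lower, beside 2.62% and 2.11%. The median change of the 20 was 0.38, 0.02 and 0.34 in the 3 lines, where that of the 39 repair genes was 0.28, 0.08 and 0.18. Of the 20 changes, 12 were above 0 and 8 below in SNU216, and 19 above and 1 below over the lines. The mean log2 level of the 20 lay between 11.40 and 11.84 in the CD133+ and between 11.04 and 11.76 in the CD133- populations. CDC2, the mitotic kinase now called CDK1, led the list with 0.85 over the lines (limma, adjusted p = 0.00114), followed by BUB1 at 0.80 (0.0256) and PCNA at 0.77 (0.0748). The part of proliferation in the repair genes' changes was not tested, and in sorted bulk cells a larger share of dividing cells and more RNA per cell cannot be told apart.

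**Figure D5:**
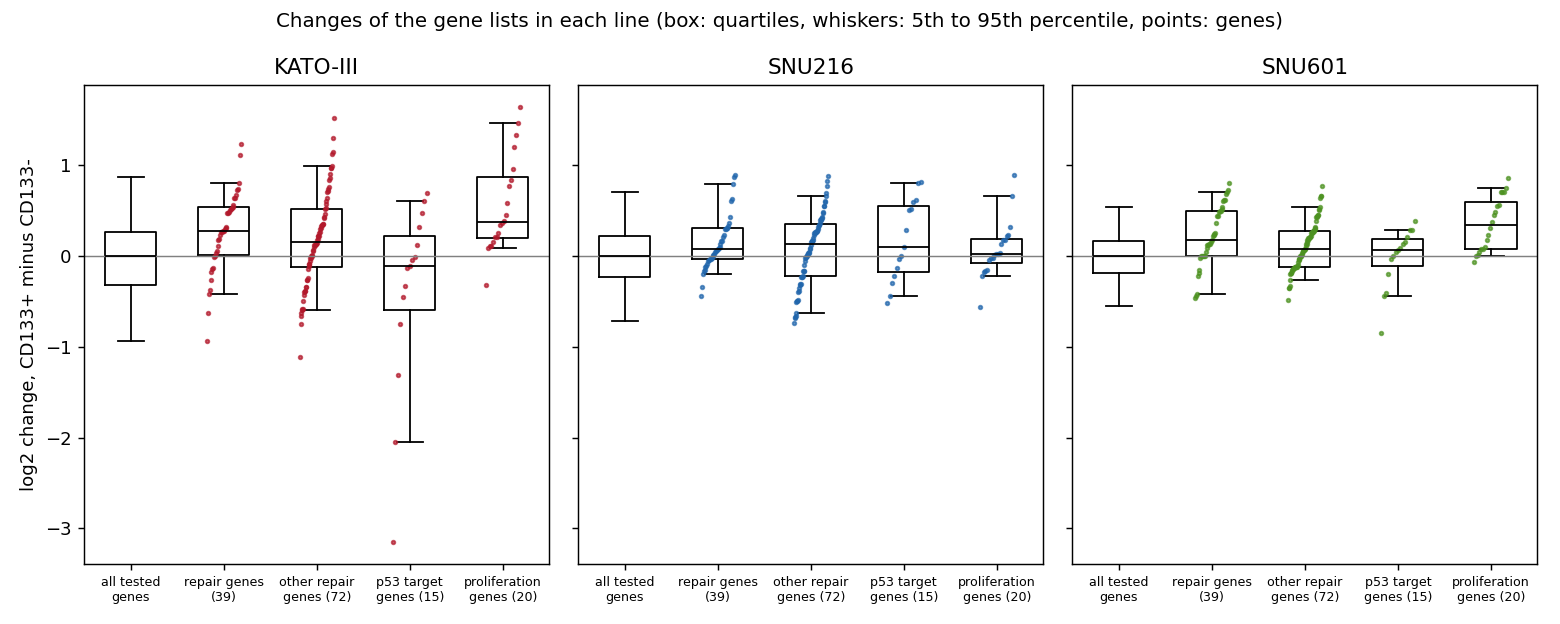
Log2 change (CD133+ minus CD133-) of all 20147 tested genes, the 39 repair genes, 72 other repair genes, 15 p53 targets and 20 proliferation genes in each line; boxes show quartiles, whiskers the 5th to 95th percentile and points single genes. The repair and proliferation boxes lie mostly above 0 in KATO-III and SNU601, and in SNU216 they lie near 0.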

How the data were processed

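RNA of CD133+ and CD133- cells sorted from 3 lines was hybridized by the authors to Illumina HT-12 v3 BeadChips, 2 arrays per population. The authors deposited quantile-normalized intensity values, linear and background-subtracted, with 1 row per gene symbol (BeadStudio per the labels). How probes were combined and how the background was subtracted is not given in the sources used here. The table has 34688 rows, 93 of them with no value at all, and 32.1% of its values do not exceed 0. Values under 32.7, the size of percentile 1, were set to this floor and log2 was taken. Of 34595 genes 20147 lay above it on at least 2 arrays and were tested.

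Changes within lines, their differences and line levels were fitted in limma 3.58.1 under R 4.3.3 (trend, 1 mean per population, 6 residual degrees of freedom), and the fractions over all lines with line as a block (8 residual degrees of freedom). Adjustment was by Benjamini-Hochberg over all genes tested, with a threshold of 0.05. The spread is that between arrays, whose number limits the precision. All members are named. Every array is given for members called over the lines or in each line, the 2 largest called changes per line and the 3 smallest interaction p, line levels for the 5 widest ranges, and 3 genes of each other list by change over the lines. The readings of ERCC1, FANCA and FANCF were added after their values were seen. The members, lists and tests were chosen with earlier results of these data known. Same-numbered arrays did not deviate together (r from -0.012 to 0.028), so replicate numbers were not taken as pairs. Scripts were tested on simulated data. Alternatives covered the floor, filter, normalization, variance model, replicates, line block, the signal-to-noise ratio used by the authors and leaving out each array. Promoters were read in Python 3.11.15 and figures drawn with matplotlib 3.10.9.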

Additional observations from a re-analysis of the deposited data

Results flagged for a closer look

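In 22 repair genes the change between the fractions differed between the lines by limma's F-test, and the largest gap between 2 lines is given on the log2 scale. KATO-III had the highest and SNU216 the lowest change for FANCI (1.34), FANCD2 (1.14), BRCA1 (0.92), XPC (0.83), XRCC3 (0.79), EXO1 (0.67), PARP1 (0.52) and LIG1 (0.35). SNU216 was highest and KATO-III lowest for TP53BP1 (0.99), MRE11A (0.53) and ERCC1 (0.52). SNU601 was highest and KATO-III lowest for FANCE (1.12), FANCG (0.71) and BARD1 (0.51). SNU601 was highest and SNU216 lowest for XRCC2 (0.68), ATM (0.60) and CHEK1 (0.44). SNU216 was highest and SNU601 lowest for FANCL (0.87) and PALB2 (0.74). KATO-III was highest and SNU601 lowest for NBN (0.67), RAD51C (0.65) and RPA1 (0.47), and the RAD51C gap is that to a line at the floor.

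Among the 6 CD133- arrays, 1 lay far from the rest for 2 genes. The gap to its nearest neighbour was 1 of the whole range for FANCA, where SNU601 replicate 2 read 43.9 and the other arrays were at the floor, and 0.669 of it for XRCC6, where KATO-III replicate 2 was lowest. For FANCA the value of 1 follows from setting the other arrays to the floor. How often chance would mark a group is not known here, as the 6 arrays come from lines that can differ in level.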

How the results depend on the processing

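Of the 57 called changes none was reversed in 1315 recomputed values, of which 1160 kept the call and 155 lost it. Alternatives that alter only the variance model or the filter leave a change as it was, so its sign could not turn there. The 59 called F-tests have no sign, and 1292 of their 1325 recomputed values kept the call and 33 lost it. Over the lines, the 6 higher calls became 0 with the arrays of a population averaged, with population as a random block, without the line block, and by the signal-to-noise ratio past 1. That ratio put 1 gene, MSH3, past -1, where limma called 0 lower. Among the 6 genes' changes over the lines, the adjusted p over the alternatives ran from 0.00168 to 0.99974. With the 4 arrays of a line alone, the calls were 0 in place of 13 higher and 1 in place of 3 lower in SNU601, and 0 in place of 1 lower in SNU216, where fewer residual degrees of freedom are left. A floor of 100 and a further quantile normalization each gave 2 lower in SNU216. Line levels passed for 13 in place of 37 genes with averaged arrays, and the share of all genes in that fit was not computed. The cause of the other shifts was not tested.

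Leaving out each array in turn gave 4 to 7 higher and 0 to 1 lower over the lines, 15 to 21 higher and 3 to 5 lower in KATO-III, 6 to 10 higher and 1 to 2 lower in SNU216, and 10 to 14 higher and 1 to 3 lower in SNU601. It gave 19 to 25 genes whose change differed and 36 to 38 whose level differed. Where it left a population with 1 array, that array was assumed to vary like the others. With the replicate block, 5 genes were higher over the lines (EXO1 was lost, adjusted p = 0.0527), and 19, 8 and 14 were higher in KATO-III, SNU216 and SNU601. The array number and the signal over background limit what can be told of FANCA, FANCF, LIG4, DDB2 and FANCC, which lie near the floor.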
